A study of Rattus norvegicus with 24 samples.

Results

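Whole kidneys of stroke-prone spontaneously hypertensive rats fed salt and fat were profiled after 2 weeks and after 8 weeks, and the results here follow the kidney between those 2 times. The comparison was defined by the diet and time labels alone and holds 12 of the 24 arrays of the series: 6 animals at 8 weeks and 6 at 2 weeks. All rats were male SHR-SP, a strain in which high blood pressure is inherited and strokes and kidney damage follow with age, and diets began at 11 weeks of age. The salt and fat groups had chow with 24.5% fat and drank water with 1% NaCl. The normal-diet groups, of the same strain, sex and starting age, had powdered chow and plain water for 2 or 8 weeks (6 arrays each) and served here as the reference for the effect of time alone. Salt and fat were given together, so neither can be told apart from the other, and the 8-week animals were also older than the 2-week animals. Each array carried RNA of whole pulverised kidney, labelled as cRNA and hybridised to an Affymetrix rat expression array. Because whole tissue was used, more cells of a type and more RNA per cell cannot be told apart in any result below.

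The kidney tubule answers injury with a recognisable set of genes. Injured proximal tubule cells place Havcr1 (KIM-1) on their surface and lose transporters of the mature epithelium. Injured tubules, distal segments among them, secrete lipocalin-2 (Lcn2), clusterin (Clu) and osteopontin (Spp1). Macrophages are drawn in, antigen presentation rises, and pericytes and fibroblasts take on contractile and matrix-forming features, with collagen deposition as the late outcome.

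On the salt and fat diet, 153 of 7493 tested genes (2.04%) were higher at 8 than at 2 weeks and 110 (1.47%) were lower, at a Benjamini-Hochberg adjusted p under 0.05 in limma. Over all 10208 tested probe sets, 227 (2.22%) were higher and 133 (1.3%) were lower, and 24 of the increases but 0 of the decreases were at least 2-fold. Centring each array on its median turned this split to 177 higher and 200 lower, so the balance of directions depends on the scaling. Without 8-week array 5, 146 probe sets were higher and 74 lower; without 2-week array 3 or 8-week array 3, the decreases numbered 72 and 83, and without 2-week array 6 or 8-week array 2 they numbered 203 and 206. On the normal diet over the same interval, 3 probe sets were higher (0.0294%) and 1 was lower (0.0098%), with 869 at an unadjusted p under 0.05 against 1731 on the salt and fat diet. The 153 genes that rose had a median change of 0.49 on the log2(signal + 7.21) scale, and the same genes had a median of 0.04 on the normal diet. The 110 genes that fell had medians of -0.38 and -0.10. Both sets were picked by their salt and fat change, so medians nearer 0 on the normal diet follow in part from that choice. The signals of the 2 times did not overlap for 65 of the 153 genes that rose and 35 of the 110 that fell. Genes are called in part for such separation, so ranges given as separate below are no added support. The share without overlap among all genes tested is not given here, so these counts cannot be read against it. All changes below are log2 differences on the log2(signal + 7.21) scale, 8 minus 2 weeks, unless stated otherwise, and signals are the deposited MAS5 values.

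**Figure D1:**
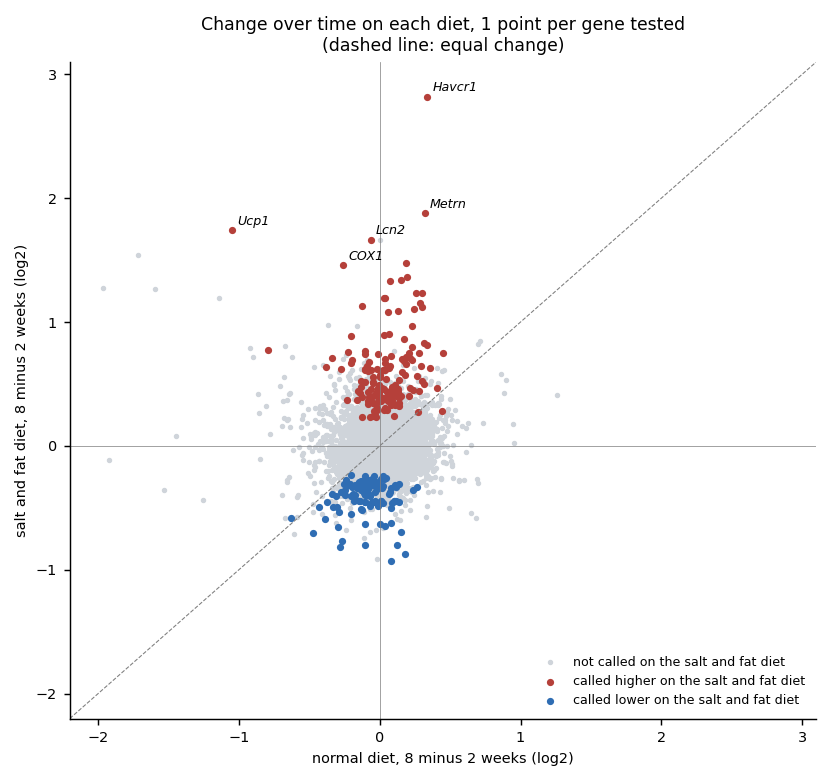
Change from 2 to 8 weeks on the normal diet (horizontal axis) and with salt and fat (vertical axis), in log2 units, with 1 point for each of the 7493 genes tested; red points were called higher and blue points called lower on the salt and fat diet. The red genes spread far along the vertical axis, up to 2.82 for Havcr1, while most of them lie near 0 on the horizontal axis. Red and blue genes were picked by their vertical change, so part of this contrast follows from that choice.

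The largest increases were led by tubular injury genes. Havcr1 signals were 28.0 to 96.0 at 2 weeks (median 52.4) and 177 to 879 at 8 weeks (median 395). The 2 ranges did not overlap, and the fitted increase was 7.06-fold (log2 2.82, SE 0.33; limma adjusted p = 1.11e-05). Lcn2, a siderophore-binding protein that damaged tubules release into urine, had signals of 45.8 to 98 at 2 weeks and 134 to 346 at 8 weeks. It rose 3.17-fold (log2 1.66, SE 0.22; limma adjusted p = 5.32e-05), again without overlap. Clu, a secreted chaperone, had signals of 540 to 619 at 2 weeks and 1014 to 2220 at 8 weeks, a 2.53-fold rise (limma adjusted p = 7.95e-07). Spp1, a phosphoprotein that attracts macrophages, ran from 1771 to 2410 at 2 weeks and from 3102 to 7387 at 8 weeks, a 2.51-fold rise (limma adjusted p = 3.17e-05). Both sets of ranges were separate. At 8 weeks the same animal, array 5, had the highest signal of each of these 4 genes and array 2 the lowest.

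On the normal diet none of the 4 changed by the test. Their log2 changes there were 0.34 for Havcr1, -0.06 for Lcn2, 0.15 for Clu and 0.07 for Spp1, with limma adjusted p-values from 0.79 to 0.96. Normal-diet medians at 8 weeks were 52.2 for Havcr1, 38.0 for Lcn2, 670 for Clu and 1044 for Spp1.

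**Figure D2:**
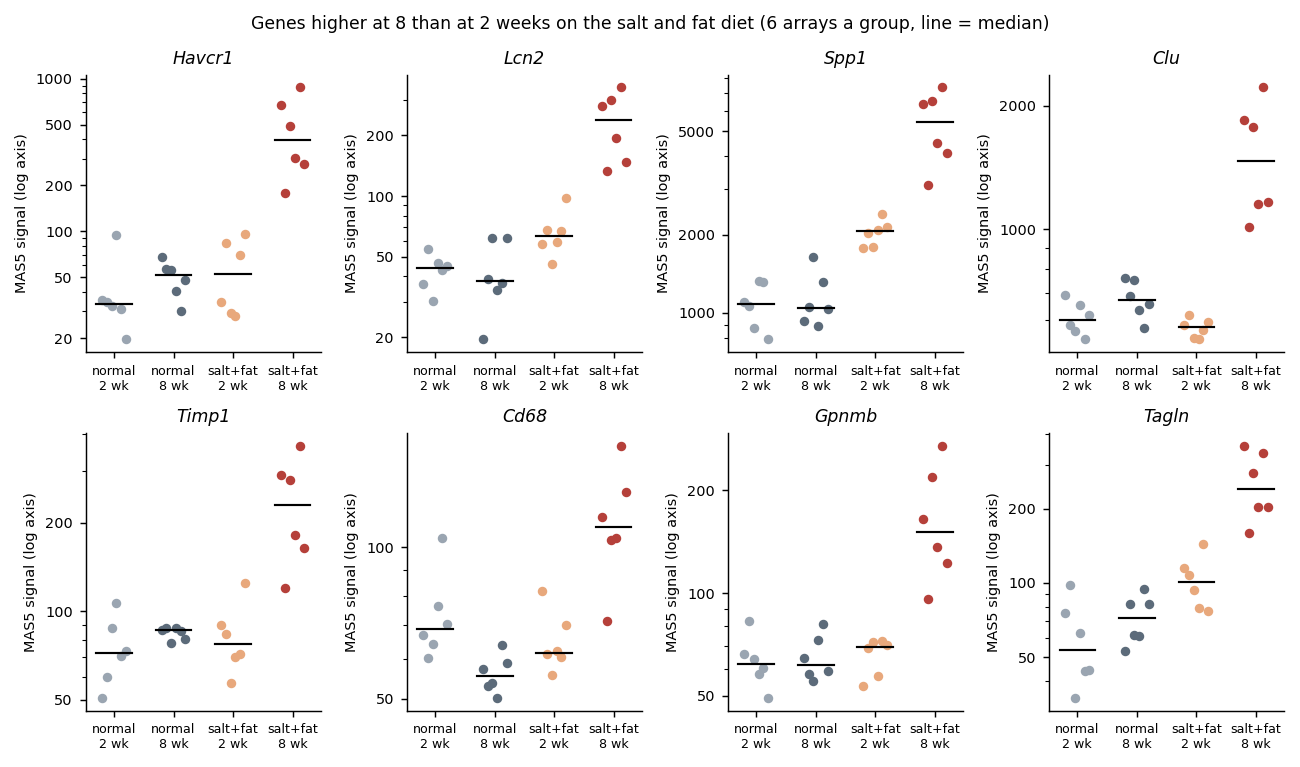
MAS5 signal (log axis) of 8 genes that rose, on each of the 24 arrays in 4 groups; points are arrays and black lines are group medians. The 8-week salt and fat arrays stand above the 2-week ones for Havcr1, Lcn2, Spp1, Clu, Gpnmb and Tagln without overlap, while single arrays overlap for Timp1 and Cd68.

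Of the 27 tested genes on a list of tubular injury and repair, 17 rose and 0 fell, against 2.04% and 1.47% of all genes tested. The median of the list was 0.46, against -0.01 for all genes tested and 0.08 for the list on the normal diet. Beside those above, Hmox1, the haem-degrading stress enzyme, ran from 46.4 to 84.9 at 2 weeks and from 80.7 to 472 at 8 weeks. It rose by 1.47 (SE 0.29; limma adjusted p = 0.00369), with an overlap of the ranges and all 6 of the 8-week arrays above the 2-week median. Timp1, the inhibitor of matrix metalloproteinases, ran from 56.9 to 124 and from 120 to 365, a rise of 1.36 (SE 0.20; limma adjusted p = 0.000174). The calcium-binding S100a4 rose by 1.24, Cd44, the hyaluronan receptor, by 0.83, the intermediate filament gene Vim by 0.76, and Tnfrsf12a, the TWEAK receptor, by 0.75. Their limma adjusted p-values were 0.00228, 0.0102, 0.00333 and 0.00453. Members that did not pass the test included Krt19 at -0.27, Ccn2 at 0.16, Krt18 at 0.21 and Vcam1 at 0.30. Leaving out any 1 array of the compared groups left 15 to 18 members called.

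Promoter sequences were set beside the largest increases, genes picked by the size of their change. Whether these genes vary together over the arrays was not tested. RefSeq (build GRCr8) gave the 250 bases before the transcription start for 6293 of the 7493 tested genes and for 11 of the 15 genes with the largest increases. Of those 11, 4 held a match to 1 of 6 motifs searched on both strands, and they are printed here with Havcr1, which held none and had the largest increase; the match is in capitals. The motifs and the genes shown were chosen after the data had been seen. The 4 matches are an NF-kappaB motif in Lcn2 (first base at -242; chr3:36081781-36082030, minus strand), an antioxidant response element in Timp1 (-215; chrX:3771123-3771372, minus strand), an AP-1 motif in Gpnmb (-87; chr4:79340878-79341127, plus strand) and a STAT motif in Fga (-242; chr2:170671919-170672168, plus strand). The Havcr1 stretch lies at chr10:31629528-31629777, plus strand.
Havcr1: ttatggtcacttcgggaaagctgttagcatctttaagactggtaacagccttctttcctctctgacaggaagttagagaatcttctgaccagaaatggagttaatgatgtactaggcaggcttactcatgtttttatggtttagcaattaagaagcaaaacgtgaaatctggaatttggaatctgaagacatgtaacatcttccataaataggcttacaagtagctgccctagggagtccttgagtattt
Lcn2: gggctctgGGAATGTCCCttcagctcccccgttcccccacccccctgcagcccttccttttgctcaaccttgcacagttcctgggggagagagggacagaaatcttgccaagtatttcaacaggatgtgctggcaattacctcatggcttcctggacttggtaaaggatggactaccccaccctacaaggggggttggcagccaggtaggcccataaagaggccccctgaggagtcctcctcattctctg
Timp1: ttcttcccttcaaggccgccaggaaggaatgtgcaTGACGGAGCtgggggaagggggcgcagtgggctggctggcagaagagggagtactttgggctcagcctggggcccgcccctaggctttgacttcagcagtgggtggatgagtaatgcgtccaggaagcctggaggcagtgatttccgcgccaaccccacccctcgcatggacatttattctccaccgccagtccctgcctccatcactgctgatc
Gpnmb: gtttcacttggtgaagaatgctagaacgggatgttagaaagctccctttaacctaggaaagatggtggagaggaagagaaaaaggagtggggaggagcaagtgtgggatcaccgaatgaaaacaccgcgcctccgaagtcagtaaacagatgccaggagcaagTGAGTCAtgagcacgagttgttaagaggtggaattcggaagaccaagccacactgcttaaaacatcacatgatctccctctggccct
Fga: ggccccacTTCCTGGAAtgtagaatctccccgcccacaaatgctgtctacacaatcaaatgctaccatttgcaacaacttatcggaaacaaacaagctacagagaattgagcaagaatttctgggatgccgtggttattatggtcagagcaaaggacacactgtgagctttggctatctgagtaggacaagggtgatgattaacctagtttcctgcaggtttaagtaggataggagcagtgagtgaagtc
The AP-1 motif (TGANTCA) occurred in 4.23% of the 6293 stretches, in 7.94% of the 126 from genes that rose and in 3.26% of the 92 from genes that fell. The STAT motif (TTCNNNGAA) occurred in 5.67%, 5.56% and 5.43% in the same order. The antioxidant response element (TGACNNNGC) occurred in 13.1%, 11.1% and 8.7%, the NF-kappaB motif in 8.14%, 10.3% and 9.78%, and the CArG box in 1.29%, 1.59% and 0%. The interferon response element (GAAANNGAA) occurred in 5.61%, 8.73% and 7.61%; a form with 1 more A at its end, which was counted first, occurred in 2.35%, 6.35% and 3.26%. The STAT and interferon motifs can overlap each other. These shares describe letters in the sequence and were not tested.

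Of 19 tested genes on the macrophage and myeloid list, 12 rose and 0 fell, and the median was 0.49 (-0.03 on the normal diet). Gpnmb, a glycoprotein of lipid-laden and phagocytic macrophages, had signals of 53.2 to 72.4 at 2 weeks and 95.8 to 270 at 8 weeks (log2 1.19, SE 0.17; limma adjusted p = 0.000124). Lgals3 (galectin-3) ran from 87.4 to 200 and from 157 to 416, a rise of 1.11 (limma adjusted p = 0.000895). Cd68, a lysosomal protein of macrophages, ran from 55.7 to 81.9 and from 71.2 to 159, a rise of 0.71 (SE 0.14; limma adjusted p = 0.00371). The complement recognition gene C1qa ran from 151 to 198 and from 199 to 296 and rose by 0.52 (limma adjusted p = 0.000754). Lysozyme (Lyz2) rose by 0.40 from a median of 1832 to 2440 (limma adjusted p = 0.00356). Gpnmb, C1qa and Lyz2 did not overlap between the 2 times, and Lgals3 and Cd68 did. The microglial and macrophage gene Aif1 was measured at medians of 67.7 and 65.6 (log2 0.01), and Csf1r, the growth factor receptor of the lineage, at a change of 0.37; neither passed the test. The number of called members fell to 6 without 2-week array 3 and to 7 without 8-week array 5, while the median of the list stayed between 0.41 and 0.53 over all single arrays left out.

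Only 3 of 16 lymphocyte genes could be tested; Lck, Cd4 and Cd3g changed by 0.27, 0.35 and 0.50 without passing the test. Of 8 listed neutrophil genes, 3 are on the array and none passed the low-signal filter. None of the 7 tested chemokine and adhesion genes passed the test (median 0.14). Of all genes tested, 2.04% rose and 1.47% fell, so a list this short would hold few or no calls at those shares.

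Of 18 tested genes on the antigen presentation and interferon list, 9 rose, 1 fell and 8 did not pass the test (median 0.29; -0.05 on the normal diet). The class II chain RT1-Da had signals of 769 to 1199 at 2 weeks and 1231 to 1944 at 8 weeks, a rise of 0.69 (SE 0.11; limma adjusted p = 0.000431), without overlap. RT1-Ba, RT1-Db1 and RT1-DMa, of the same class II system, rose by 0.45, 0.49 and 0.45. The peptide transporter subunit Tap2 rose by 0.67 (limma adjusted p = 0.00453), and the immunoproteasome subunits Psmb8 and Psmb10 rose by 0.53 and 0.61. B2m, the light chain of class I molecules, ran from 2948 to 3982 and from 3932 to 4544, a rise of 0.34 (limma adjusted p = 0.00379); its second probe set rose by 0.24. The class I gene RT1-CE16 went the other way, from 258 to 400 at 2 weeks to 214 to 281 at 8 weeks (log2 -0.44, SE 0.09; limma adjusted p = 0.00609). The B2m call was lost under quantile normalization and with the level of the adipocyte list as a covariate. That of RT1-CE16 was lost with the level of the spike-in transcripts as a covariate. Genes of the class I and class II families are closely similar, so a probe set may read more than 1 of them. The presentation genes Psmb9, Tapbp, RT1-DMb and RT1-Bb were at 0.39, 0.21, 0.17 and 0.09 and did not pass the test. The interferon-induced genes Mx1, Oas1a and Irf7 were at -0.06, -0.03 and -0.12 and did not pass the test.

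Among 18 tested complement and coagulation genes, 6 rose and 0 fell (median 0.28). They were C1qa, C1qb and C1qc of the classical pathway, the central component C3 (0.62), the protease Cfi (0.96) and fibrinogen chain Fga (1.13). Cfi ran from 20.8 to 44.5 at 2 weeks and from 44.8 to 95.4 at 8 weeks (SE 0.19; limma adjusted p = 0.00379), with ranges that met but did not overlap. Fga ran from 31.8 to 50.9 and from 46.8 to 217 (SE 0.26; limma adjusted p = 0.0127). Fga is a liver gene as well; the other 6 tested genes of a list of liver genes did not pass the test, and the summed signal of that list was 885 to 1246 at 2 weeks and 927 to 1323 at 8 weeks, and its part in the Fga result was not tested. Adjusted for the level of the spike-in transcripts, the change in Fga was 1.05 and that in C3 was 0.44, and neither was called (limma adjusted p = 0.0595 and 0.134). With either the spike-in or the adipocyte covariate, 4 of the 18 genes were called higher, and C3 also lost its call when only the compared groups were fitted (limma adjusted p = 0.0512).

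Lysosomal genes changed in part. Of 29 tested, 6 rose and 1 fell (median 0.10). The proteases Ctsd, Ctsl, Ctss and Ctsz rose by 0.46, 0.37, 0.41 and 0.57, the membrane protein Scarb2 by 0.89, and Cd68 as above. Ctsd ran from 1429 to 1800 and from 1903 to 2635 (limma adjusted p = 0.00213). The beta-galactosidase gene Glb1 fell by 0.40 (SE 0.09; limma adjusted p = 0.00938). Glb1 and Ctsz lost their calls with the adipocyte covariate. The membrane proteins Lamp1 and Lamp2 were at 0.11 and -0.04 and did not pass the test.

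Of 12 tested contractile and other genes of smooth muscle and pericytes, 4 rose and 0 fell (median 0.33; 0.05 on the normal diet). Tagln (SM22-alpha) ran from 77.2 to 143 at 2 weeks and from 159 to 358 at 8 weeks, a rise of 1.23 (SE 0.21; limma adjusted p = 0.000776). Rgs5, a pericyte regulator of G-protein signalling, ran from 21.4 to 53.7 and from 64.9 to 90.4, a rise of 0.88 (SE 0.16; limma adjusted p = 0.00213). Acta2 (smooth muscle actin) ran from 141 to 207 and from 210 to 329, a rise of 0.63 (SE 0.12; limma adjusted p = 0.00191). Myh11 (smooth muscle myosin) rose by 0.46 (limma adjusted p = 0.0205), and by 0.40 with an adjusted p of 0.0506 in limma without 8-week array 6. The Myh11 call was also lost with either the spike-in or the adipocyte covariate. The 2 times did not overlap for any of the 4, against 65 of all 153 genes that rose. Pdgfrb, Des and Myl9 were at 0.18, 0.34 and 0.22, Mylk and Smtn were at -0.08 and -0.14, and none of these passed the test.

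The matrix list moved less. Of 30 tested extracellular matrix genes, 2 rose and 1 fell, with a median of 0.13 (-0.09 on the normal diet). Matrix Gla protein (Mgp), an inhibitor of calcification, ran from 1294 to 1815 and from 1652 to 3296, a rise of 0.62 (SE 0.12; limma adjusted p = 0.00387). Collagen I chain Col1a1 ran from 141 to 207 at 2 weeks and from 159 to 467 at 8 weeks, a rise of 0.78 (SE 0.20; limma adjusted p = 0.0257), with 5 of 6 of the 8-week arrays above the 2-week median; its second probe set rose by 0.47 (limma adjusted p = 0.0404). The call of Col1a1 was lost without 2-week array 3 or 4 or 8-week array 1, 3 or 5, at changes of 0.73, 0.75, 0.72, 0.71 and 0.64. Its call was also lost with either the spike-in or the adipocyte covariate. Fibronectin (Fn1) had medians of 622 and 627 (log2 0.14; limma adjusted p = 0.665), and Col3a1, Col1a2 and Col4a1 were at 0.35, 0.31 and 0.25 without passing the test. The elastic fibre gene Fbln5 fell by 0.40 (SE 0.09; limma adjusted p = 0.00739), from 455 to 538 at 2 weeks to 327 to 445 at 8 weeks. Without 8-week array 2, 6 matrix genes were called higher, without 2-week array 5, 4 were, and without 2-week array 3 or 4 or 8-week array 1, 3 or 5, 1 was.

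**Figure D3:**
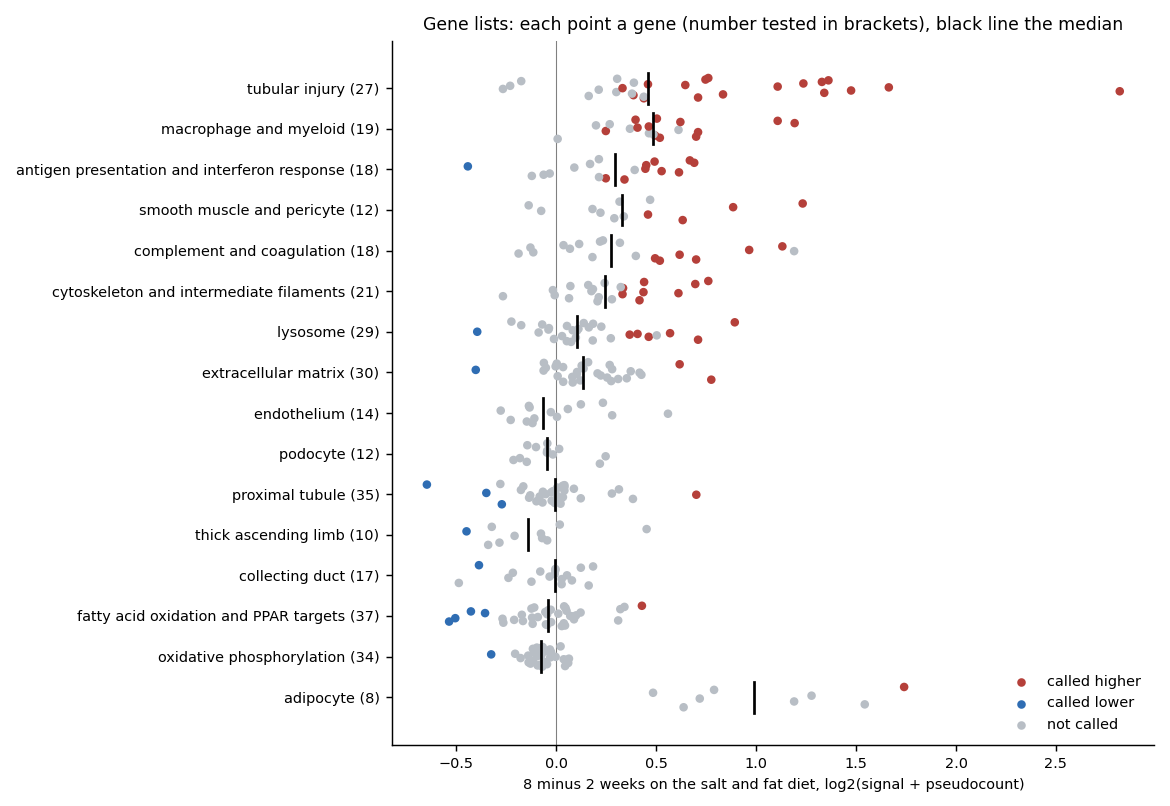
Log2 change from 2 to 8 weeks on the salt and fat diet for each tested gene of 16 lists (points; number tested in brackets), with the median of each list as a black line; red was called higher, blue lower, grey neither. The tubular injury, macrophage and antigen presentation lists hold many red points. Podocyte and endothelial genes are all grey, and lists of their size hold few or no calls at the shares over all genes tested.

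Some genes of the cytoskeleton and of cell junctions rose. Of 21 tested cytoskeleton genes, 8 rose and 0 fell (median 0.24). They included Vim, the leukocyte plastin Lcp1 (0.61), the actin-nucleation subunit Arpc1b (0.42) and Tagln2 (0.33). Arpc1b ran from 408 to 535 and from 551 to 709 (limma adjusted p = 0.00103), without overlap. Of 16 tight junction and adhesion genes, 3 rose and 0 fell. Claudin-7 (Cldn7), of the distal nephron, ran from 54.4 to 118 at 2 weeks and from 160 to 273 at 8 weeks, a 2.17-fold rise (log2 1.12, SE 0.16; limma adjusted p = 0.000175). Claudin-2 (Cldn2), the cation-permeable claudin of the proximal tubule, rose by 0.44, and the epithelial adhesion gene Epcam by 0.36. None of these 3 overlapped between the 2 times.

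The genes that fell were spread over nephron segments and metabolism, and their changes were smaller than the leading increases. Calbindin-D28k (Calb1), the calcium buffer of the distal tubule, ran from 1275 to 1538 at 2 weeks and from 611 to 1163 at 8 weeks. It was 1.76-fold lower at 8 weeks (log2 -0.82, SE 0.10; limma adjusted p = 1.76e-05), without overlap. Slc9a3 (NHE3), the sodium-hydrogen exchanger that carries much of proximal sodium reabsorption, ran from 367 to 446 and from 228 to 285, 1.57-fold lower (log2 -0.65, SE 0.08; limma adjusted p = 3.17e-05), also without overlap. Gc, the vitamin D binding protein, ran from 404 to 772 and from 241 to 446 (log2 -0.77, SE 0.15; limma adjusted p = 0.00356), and its second, dimmer probe set was at -0.22 without passing the test. Echs1, an enoyl-CoA hydratase of fatty acid oxidation, fell by 0.63 (limma adjusted p = 0.00065), and amphiregulin (Areg), a ligand of the EGF receptor, by 0.62 (SE 0.12; limma adjusted p = 0.00257). The histone-binding Anp32a fell by 0.80 (SE 0.18; limma adjusted p = 0.0102). Hpgd, which inactivates prostaglandins, fell by 0.59 (limma adjusted p = 0.00569); its second probe set was at -0.22 without a call. Calb1, Slc9a3, Echs1, Areg, Anp32a and Hpgd did not overlap between the 2 times. The largest decrease, Lrch4 at -0.93 (SE 0.22; limma adjusted p = 0.0148), did overlap, at 84.9 to 125 against 22.3 to 85.7. Dusp23, next at -0.87, did not overlap, and its lowest 8-week signal, 15.6 on array 5, lay far below the other 5, at 51.2 to 89.4. Dusp23 lost its call with either covariate and when only the compared groups were fitted. Lrch4 and Anp32a lost theirs with the spike-in covariate, and Hpgd with the adipocyte covariate. The rest of the 15 largest decreases were less stable. They were Jag1 (-0.80), Slc2a13 (-0.70), Oxnad1 (-0.69), Slc22a13 (-0.65), Chd6 (-0.63) and Eeig1 (-0.58). Their calls were lost without 10, 6, 2, 4, 10 and 6 of the single arrays, in that order. The second probe set of Slc2a13 was at -0.27 without a call.

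**Figure D4:**
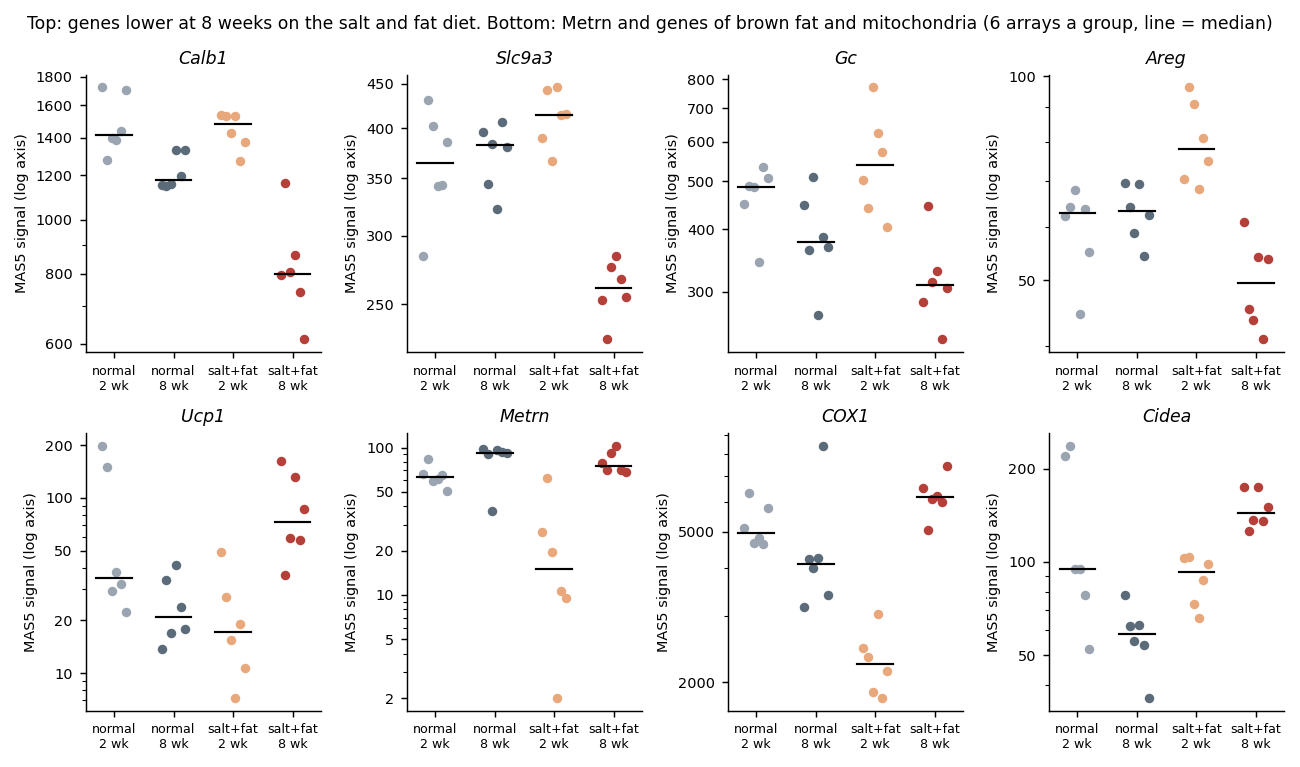
MAS5 signal (log axis) on each of the 24 arrays in 4 groups for Calb1, Slc9a3, Gc and Areg (top) and for Ucp1, Metrn, COX1 and Cidea (bottom); points are arrays and black lines are group medians. Calb1, Slc9a3 and Areg are lower at 8 weeks on the salt and fat diet without overlap, and Metrn, COX1 and Cidea are higher without overlap.

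Some genes of the mature proximal tubule were called. Of 35 tested proximal tubule genes, 1 rose and 3 fell (median -0.01), against 2.04% and 1.47% of all genes tested. Slc13a1, the sodium-sulfate cotransporter, rose from 282 to 524 at 2 weeks to 601 to 762 at 8 weeks (log2 0.70, SE 0.11; limma adjusted p = 0.000431), and its second probe set rose by 0.53. Beside Slc9a3, the brush border peptidase Anpep fell by 0.27 and the organic cation transporter Slc22a2 by 0.35. The calls of Anpep and Slc22a2 (limma adjusted p = 0.0393 and 0.0469) were lost without 7 and 8 of the single arrays; both lost it without 2-week array 2, 3 or 4 and 8-week array 3 or 5, Anpep also without 8-week array 1 or 4, and Slc22a2 also without 2-week array 5 or 6 or 8-week array 6. Their changes without those arrays were -0.28 to -0.24 for Anpep and -0.36 to -0.29 for Slc22a2. The glucose transporter Slc5a2 was at -0.17 and the transcription factor Hnf4a at 0.38 (limma adjusted p = 0.558 and 0.0997); without 2-week array 1, Hnf4a was at 0.48 (limma adjusted p = 0.0309). The summed signal of the proximal list was 59380 to 76305 at 2 weeks and 61145 to 71160 at 8 weeks.

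Calls in the other segments are given beside the shares over all genes tested, 2.04% higher and 1.47% lower. None of 12 podocyte and 14 endothelial genes passed the test (medians -0.05 and -0.07), Nphs1 being at -0.05. At the shares over all genes tested, lists of this size hold few or no calls, so this is no result about those cells. Of 10 distal convoluted and connecting tubule genes, Calb1 was the 1 called. Of 10 tested genes of the thick ascending limb, 0 rose and 1 fell (median -0.14), and 2 of the 10 had a positive change. The called gene was the phosphatase inhibitor Ppp1r1a at -0.45 (limma adjusted p = 0.0168); its call was lost without 8-week array 3, 4 or 5, at -0.40 each, and with either covariate. The salt cotransporter Slc12a1 and the calcium sensor Casr were at -0.32 and -0.34 without passing the test. Umod, the main secreted protein of that segment, had medians of 5664 and 5709 (log2 0.02; limma adjusted p = 0.943), with a small negative value under median centring (-0.02) and quantile normalization (-0.15). Of 17 tested collecting duct genes, 0 rose and 1 fell (median -0.01). The called gene was the anion exchanger Slc4a1 at -0.39 (limma adjusted p = 0.0251), which red blood cells also express; its call was lost without 2-week array 1, 3 or 5 or 8-week array 3, 4 or 5, at -0.36 to -0.33, and with the spike-in covariate, and its second probe set was at -0.31 without a call. The water channel Aqp2 was at 0.16 (limma adjusted p = 0.605) and ran from 1171 to 1479 and from 1065 to 1782; with the adipocyte covariate it was called higher, at 0.48 (limma adjusted p = 0.011). Aldose reductase (Akr1b1), which makes the osmolyte sorbitol, ran from 221 to 880 at 2 weeks and from 254 to 602 at 8 weeks (log2 -0.60; limma adjusted p = 0.131); without 2-week array 2, its lowest value, the change was -0.87 (limma adjusted p = 0.00213), and under array weights it was -0.75 (limma adjusted p = 0.0203). Psca, a urothelial surface protein, was at medians of 166 and 114 on the salt and fat diet, against 6.8 and 8.75 on the normal diet, and its change over time was -0.31 (limma adjusted p = 0.619). Of 12 renin-angiotensin, endothelin and steroid signalling genes and 22 cell cycle genes, none passed the test. Lists of this size too hold few or no calls at the shares over all genes tested.

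Some genes of energy metabolism were called. Of 37 tested genes of fatty acid oxidation and PPAR targets, 4 fell and 1 rose (median -0.04; -0.12 on the normal diet). Over all genes tested, 1.47% fell and 2.04% rose. The isomerase Eci2 ran from 489 to 569 and from 374 to 446 (log2 -0.36, SE 0.06; limma adjusted p = 0.000431), without overlap. The fatty acid carrier Fabp3 fell by 0.43 and the peroxisomal oxidase Acox2 by 0.54. Cpt1b, the muscle form of the carnitine transferase, fell by 0.51 (limma adjusted p = 0.016), and by 0.45 without 8-week array 3 or 5, when its limma adjusted p was 0.0513 or 0.056. Acox2 lost its call with the adipocyte covariate and Cpt1b with the spike-in covariate. Of 34 nuclear genes of oxidative phosphorylation, 0 rose and 1 fell, with a median of -0.08. The desaturase Scd, which makes monounsaturated fat, was low at both times on this diet, at medians of 32.4 and 33.6, against 486 and 137 on the normal diet; its change over time was -0.11 (limma adjusted p = 0.956), and it turned positive under array weights (0.01), without 8-week array 2 (0.18) and with the spike-in covariate (0.38), and it was called lower, at -1.71 (limma adjusted p = 0.00684), with the adipocyte list level as a covariate.

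COX1, Metrn and Ucp1 were also among the 15 largest increases. COX1, the mitochondrially encoded subunit of cytochrome oxidase, ran from 1818 to 3040 at 2 weeks and from 5053 to 7457 at 8 weeks, a 2.75-fold rise (log2 1.46, SE 0.16; limma adjusted p = 4.1e-06), without overlap. Its normal-diet medians were 4963 at 2 weeks and 4120 at 8 weeks, so the 2-week salt and fat arrays were the low group. Metrn (meteorin), a secreted factor, showed the same pattern, at 2.0 to 61.8 at 2 weeks and 68.1 to 103 at 8 weeks (log2 1.88, SE 0.30; limma adjusted p = 0.000427), with normal-diet medians of 63.5 and 92.5. Ucp1, the uncoupling protein of brown fat, ran from 7.2 to 48.8 and from 36.3 to 162 (log2 1.74, SE 0.42; limma adjusted p = 0.016), and from 22.2 to 198 and 13.7 to 41.4 on the normal diet. Of 8 tested adipocyte genes, Ucp1 was the 1 called. The other 7 were also positive, from 0.48 for Lpl to 1.54 for Car3, and did not pass the test; the fat cell lipid carrier Fabp4 ran from 18.1 to 80.4 and from 87.7 to 201 (log2 1.28; limma adjusted p = 0.385). The summed signal of the 8 genes was 372 to 655 at 2 weeks and 767 to 1294 at 8 weeks with salt and fat, and 586 to 4873 and 332 to 4252 on the normal diet, with a median list change of -0.98 there. The fit shares 1 spread over all 4 groups, so the wide normal-diet spread of these genes also entered their salt and fat tests. With the level of this list as a covariate, chosen after the data had been seen, the change in Ucp1 was 1.16 (limma adjusted p = 0.182), while COX1 was at 1.45, Metrn at 1.63, Havcr1 at 2.76 and Clu at 1.33, each still called. With the same covariate, 5 of 19 macrophage genes, 4 of 18 antigen presentation genes and 14 of 27 injury genes were called higher, and Vim was at 0.53 (limma adjusted p = 0.0566). The amount of fat around or in the kidney samples was not tested.

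**Figure D5:**
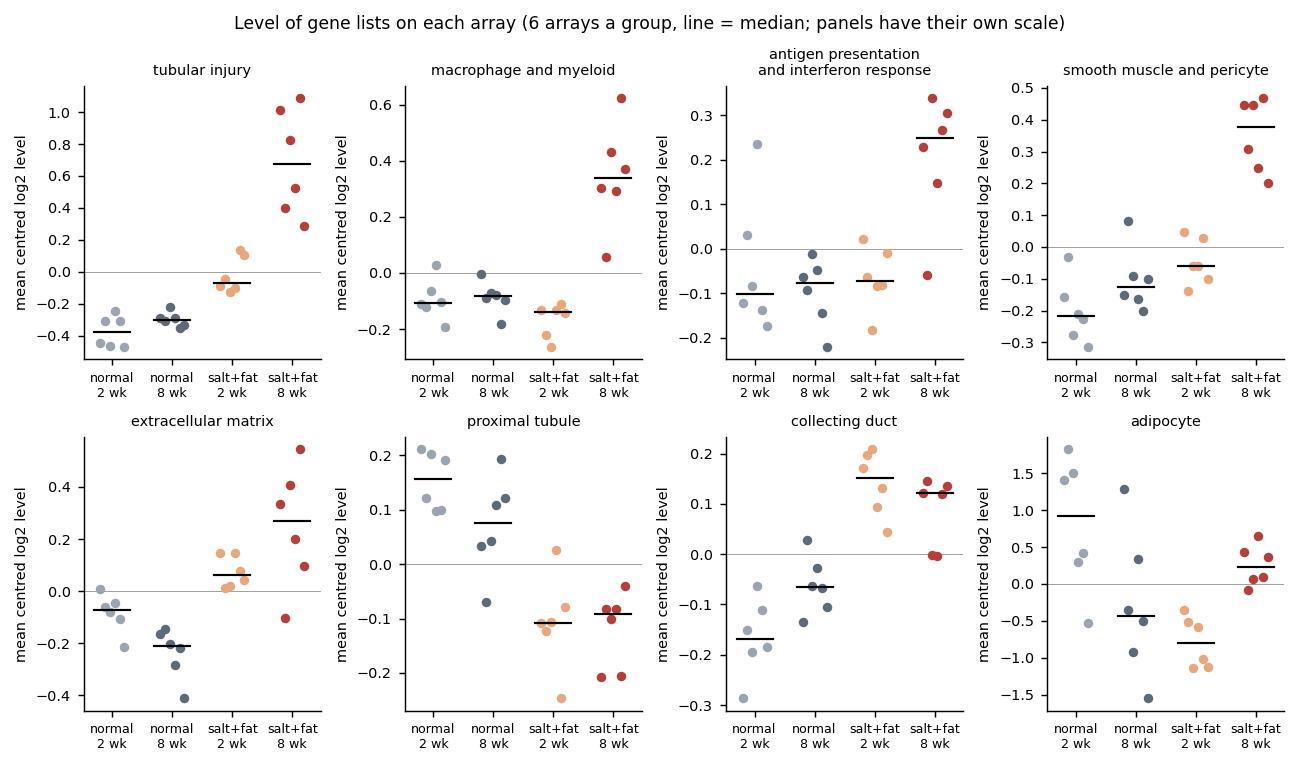
Mean centred log2 level of 8 gene lists on each of the 24 arrays in 4 groups; points are arrays, black lines are group medians, and each panel has its own scale. The injury and smooth muscle lists are highest in the 8-week salt and fat arrays without overlap with the 2-week arrays, while the adipocyte list varies most among normal-diet arrays.

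The spike-in level moved with time as well. The spike-in transcripts, which are added to each sample in fixed amounts, had a mean log2 level of 9.10 ± 0.06 (SD, n = 6) at 8 weeks and 8.86 ± 0.20 (SD, n = 6) at 2 weeks on the salt and fat diet (exact two-sided permutation test, p = 0.00866, adjusted p = 0.0304 over 4 tests). On the normal diet the difference ran the other way, 8.87 ± 0.24 against 9.16 ± 0.06 (exact permutation test, p = 0.0152, adjusted p = 0.0304). The GAPDH 3' to 5' ratio, a sign of RNA integrity, was 1.16 ± 0.09 at 8 weeks and 1.22 ± 0.09 at 2 weeks (exact permutation test, p = 0.305, adjusted p = 0.305), and the actin ratio was 2.27 on 2-week array 2 against 1.31 to 1.57 on the other 5. With this level as a covariate, also chosen after the data had been seen, the change was 1.54 for Lcn2, 1.39 for Clu, 1.25 for Spp1, 1.21 for COX1, -0.68 for Slc9a3 and -0.87 for Calb1, each still called. Of 84 named genes called over time on the salt and fat diet, 59 stayed called with that covariate and 56 with the adipocyte covariate, and 60 stayed called when each array was left out in turn.

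Whether the change over time differed between the diets was tested directly. The difference was positive for 35 probe sets (0.343%) and negative for 4 (0.0392%), with 1189 at an unadjusted p under 0.05. Of the 153 genes that rose on the salt and fat diet, 25 were called in this test, and of the 110 that fell, 3 were. Over all 7493 genes tested, 27 had a positive and 4 a negative difference. The difference includes the salt and fat change by which the 153 and 110 were picked, so this overlap follows in part from that choice. The log2 difference of the changes, salt and fat minus normal diet, was 2.48 for Havcr1 (SE 0.47; limma adjusted p = 0.0155), 1.73 for Lcn2 (SE 0.32; limma adjusted p = 0.0113), 1.25 for Spp1 (limma adjusted p = 0.0165) and 1.19 for Clu (SE 0.19; limma adjusted p = 0.00361). COX1 had a difference of 1.72 (limma adjusted p = 0.000306), Col1a1 of 1.57 (SE 0.28; limma adjusted p = 0.011), Cd68 of 1.05 (limma adjusted p = 0.0155), RT1-Da of 0.89 (limma adjusted p = 0.00871) and C1qa of 0.62 (limma adjusted p = 0.0165). For Col1a1 the change was 0.78 with salt and fat and -0.79 on the normal diet. Its second probe set had a difference of 0.62 that did not pass the test (limma adjusted p = 0.158). The brown fat gene Cidea was called in the difference (1.62; limma adjusted p = 0.0219) from changes of 0.72 with salt and fat and -0.90 on the normal diet, neither of which passed the test alone. The calls in the other direction were Slc9a3 (-0.68; limma adjusted p = 0.00871), the neddylation subunit Nae1 (-0.80), Tmtc1 (-0.59) and the glycan enzyme Gcnt2 (-0.59); Tmtc1 was at -0.55 without 8-week array 3 (limma adjusted p = 0.0526). Without 8-week array 3, 19 probe sets had a positive difference, and without 2-week array 3 or normal-diet 8-week array 2, 23 did. For Timp1, Hmox1, Metrn, Tagln, S100a4 and Calb1 the difference did not pass the test, at 1.17, 1.29, 1.56, 0.93, 0.98 and -0.54.

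The calls of this test were lost when the spike-in level, which moved in opposite directions on the 2 diets, was taken into account. With it as a covariate, 0 probe sets were called either way in limma. The difference was then 2.89 for Havcr1, 1.45 for Lcn2, 1.30 for Clu and 1.16 for COX1, with limma adjusted p-values of 0.126, 0.286, 0.126 and 0.126. With the adipocyte list as a covariate, 8 probe sets had a positive difference and 0 a negative one; COX1 (1.69), Ctsl (0.66) and Lcn2 (2.34) were the named genes still called. The part of either measure in these results was not tested.

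On the normal diet itself, the 4 calls were Grem1, an antagonist of bone morphogenetic proteins (log2 1.26; limma adjusted p = 0.0262), the LIM domain gene Csrp1 (0.44; limma adjusted p = 0.0276), the water channel Aqp3 (0.43; limma adjusted p = 0.0488) and, lower, Ccm2 (-1.53; limma adjusted p = 0.0262). Csrp1 also rose on the salt and fat diet (0.29; limma adjusted p = 0.0419), while Grem1, Aqp3 and Ccm2 were at 0.41, 0.03 and -0.35 there without passing the test. Each of these 4 normal-diet calls was lost without 7 to 9 of the single normal-diet arrays, for each gene among them 2-week arrays 1 and 4 and 8-week arrays 2, 3, 4 and 6, with the highest limma adjusted p at 0.145 for Grem1, Csrp1 and Ccm2 and 0.179 for Aqp3.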

How the data were processed

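Total kidney RNA of 24 rats was hybridised to 1 array each, per the labels' protocols. The authors deposited linear intensity values (MAS5 signals, a named tool in the submitters' processing notes) for 15923 probe sets; scan and hybridisation batches are not given in the sources used here. Signals were raised by 7.21 (0.1 of the median signal), put on log2 and not rescaled, since trimmed means were already equal (149.5 to 150.0). Probe sets above their array's 40th percentile on at least 6 arrays were kept (10208). Group means of all 4 groups were fitted together with limma 3.58.1 (trended eBayes, R 4.3.3) with Benjamini-Hochberg adjustment, so the groups share 1 estimate of the spread; the fit was tested on simulated data. The labels name 6 animals per group, and the p-values measure the spread among animals within groups, pooled over all 4 groups. GEO's platform annotation gave 1 symbol for 12783 probe sets, several for 312 and none for 2771; a gene is its tested probe set of highest mean (7493 genes). Single measures were compared by exact permutation over samples.

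Named genes are the 15 largest called changes each way, the 5 largest each way in the normal-diet and difference tests, up to 4 called members per list with the smallest p, up to 2 members against their list, and 15 genes fixed by name; other members are given as examples of their list, chosen after their values were seen. The comparison and the 42 gene lists were chosen with earlier results of these data known. Alternatives covered pseudocounts of 1 and 32, normalization, filters, eBayes settings, array weights, a replicate block, only the compared groups, single arrays left out, the probe set rule and, added after the data were seen, 2 covariates and the removal of 2 normal-diet arrays. Replicate numbers 1 to 6 did not pair the animals across times.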

Additional observations from a re-analysis of the deposited data

Results flagged for a closer look

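Of 210 groups of 6 arrays checked, 8 held a single array far from the others; about 1 in 20 such groups is picked out by chance alone. On 2-week array 2 of the salt and fat diet, Akr1b1 was 221 (the other 5 at 564 to 880), Psca was 53.2 (144 to 213) and the actin 3' to 5' ratio was 2.27 (1.31 to 1.57). On 2-week array 4, Aqp3 was 459.3 (518 to 550) and Ptprj was 6.3 (25.4 to 42.4), and on 2-week array 5, Cpt1b was 269.9 (196 to 218). At 8 weeks, Dusp23 was 15.6 on array 5 (51.2 to 89.4) and RT1-CE16 was 280.8 on array 6 (214 to 235).

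The change from 2 to 8 weeks differed between the diets, by the fitted difference in limma, for 22 named genes. Salt and fat minus normal diet, it was 2.79 for Ucp1, 2.48 for Havcr1, 1.73 for Lcn2, 1.72 for COX1, 1.62 for Cidea, 1.57 for Col1a1, 1.25 for Spp1, 1.19 for Clu, 1.15 for Gpnmb, 1.09 for Rgs5 and 1.05 for Cd68 on the log2 scale. It was 0.99 for Vim, 0.89 for RT1-Da, 0.87 for Tap2, 0.62 for C1qa, 0.60 for Ctsl, 0.52 for Lyz2 and 0.42 for B2m. It was -0.80 for Nae1, -0.68 for Slc9a3, -0.59 for Tmtc1 and -0.59 for Gcnt2. Second probe sets of Col1a1 and B2m had differences of 0.62 and 0.19 without a call, and that of Ctsl, at 0.75, was called. Of the 22, 14 stayed called when each of the 24 arrays was left out in turn, 3 with the adipocyte list as a covariate and 0 with the spike-in level as a covariate. Gpnmb and Tmtc1 lost the call without 8-week salt and fat array 3, Lyz2 without that array or normal-diet 8-week array 2, and Ucp1 without normal-diet 2-week array 2, salt and fat 2-week array 3 or salt and fat 8-week array 1; B2m, Tap2, Vim and Rgs5 lost it without 16, 13, 7 and 4 single arrays.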

How the results depend on the processing

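On the salt and fat diet, 227 probe sets were higher and 133 lower. Array weights gave 350 and 282, the adipocyte list as a covariate 147 and 76; decreases numbered 200 with median centring and 71 with only the compared groups. Leaving out single arrays gave 146 to 301 higher and 72 to 206 lower. On the normal diet, with 3 and 1 called, 0 were higher and 0 lower with eBayes without trend, with only the compared groups and with the spike-in covariate; 0 were higher with the adipocyte covariate and 1 with median centring; 2 were lower with array weights and with the replicate block; without both normal-diet 8-week arrays 1 and 2 there were 5 and 4, and single arrays left out gave 0 to 7 and 0 to 3. For the difference between diets, with 35 and 4 called, array weights gave 62 and 18, the adipocyte covariate 8 and 0, the spike-in covariate 0 and 0; negative differences numbered 7 with median centring and 8 without both normal-diet 8-week arrays 1 and 2. Single arrays left out gave 19 to 45 and 3 to 10. The causes were not tested. The replicate block, whose numbers did not pair the animals (same-number correlations of -0.10 to 0.16, with 2 of 6 arrays closest to their own number), gave 222 higher and 132 lower on the salt and fat diet.

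Over time on the salt and fat diet, the direction turned for 3 named genes, none of them called. Scd was at 0.014 with array weights, at 0.38 with the spike-in covariate and at -0.23 to 0.18 without single arrays; with the adipocyte covariate it was called lower, at -1.71. That covariate also made Aqp2 a call (0.48), and array weights made Akr1b1 one (-0.75). Umod was at -0.15 with quantile normalization, at -0.024 with median centring, at -0.077 with the spike-in covariate and at -0.027 to 0.069 without single arrays. Nphs1 was at -0.13 to 0.020 without single arrays. Dim probe sets near the added 7.21 have understated changes, and 6 arrays a group limit the precision.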
